A study of Rattus norvegicus with 39 samples.

Results

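Adrenalectomized rats that received a short course of corticosterone injections were compared with adrenalectomized rats that carried a large corticosterone pellet for months. The comparison took every array labelled LowInj (10 rats) and every array labelled IntermediateCort (9 rats), 19 of the 39 arrays in the study, and tested each probe set on its log2 expression value. Both groups were male Fischer 344 rats, aged 18 months at the end, whose adrenal glands had been removed and whose only sustained source of corticosterone was a slow-release pellet worn for 3 months. LowInj rats wore a 25 mg pellet and were given 5 mg of corticosterone per day by injection into the abdominal cavity on 4 days at the end of the study. IntermediateCort rats wore a 200 mg pellet and were not injected. Beside them stood 10 LowCort rats, adrenalectomized with a 25 mg pellet and no injections, and 10 sham rats of the same age and strain that kept their adrenal glands and wore an inert pellet. Salt and sugar stayed in the water of rats on the small pellet, so drinking fluid, injections and pellet dose cannot be told apart. All rats were killed in the morning. The labels do not state the time from the last injection to death, and the hormone levels in blood were not analysed here. The 25 mg pellet was never withdrawn, so LowInj is an addition of injections to a low level and not a replacement of the pellet.

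Corticosterone is the main glucocorticoid of the rat and reaches neurons through a pair of nuclear receptors. The mineralocorticoid receptor (Nr3c2) binds it tightly and is largely occupied at low levels, whereas the glucocorticoid receptor (Nr3c1) is occupied at the daily peak or under stress. Both are abundant in CA1, the hippocampal field studied here, where the hormone acts on excitability, glucose use, lipid metabolism and immune genes. The comparison asks whether a few days of a high dose on top of a low level leave a different transcript profile from months of a steadier, higher level.

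The arrays covered 8799 probe sets, of which 8740 were not controls and were tested. Array medians lay between 7.27 and 7.31, and pairs of arrays correlated across probe sets at 0.975 to 0.997 within the groups and at 0.976 to 0.998 between them. The difference between the 3′ and 5′ Gapdh control probe sets, a measure of RNA or cDNA length, had a mean of 1.03 ± 0.60 in LowInj (SD, n = 10, log2) and 0.63 ± 0.21 in IntermediateCort (n = 9). An exact two-sided permutation test of the difference of 0.40 gave p = 0.0642 (adjusted p = 0.128 over 2 control genes). It was 1 or more on 4 LowInj arrays (subjects 34, 35, 38 and 39) and 1 IntermediateCort array (subject 19). Results are therefore also given without these 5 arrays for part of the genes, a choice made after seeing the data. Genes given only with all arrays can move too. CA1 tissue was represented by 11 of 21 marker genes of CA1 pyramidal neurons, whose mean level ran from 9.00 to 9.59 in LowInj and from 9.02 to 9.52 in IntermediateCort. The median difference of this list was -0.05, with 7 of 11 members lower in LowInj, and -0.18 without the 5 arrays, with 10 of 11 lower. Hpca, the calcium sensor hippocalcin, stood at 11.94 ± 0.29 and 12.08 ± 0.23, a difference of -0.14 (unadjusted p = 0.224), and differed by -0.30 without the 5 arrays (unadjusted p = 0.00429). The part of CA1 neuron content in other differences was not tested. In such tissue samples, fewer cells of a type and less RNA per cell cannot be told apart.

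No probe set passed an adjusted p of 0.05 in limma with Benjamini-Hochberg adjustment over all probe sets. The count was 0 of 8740, or 0.0%, and 3 (0.0343%) had an adjusted p under 0.1. At an unadjusted p under 0.05, 860 probe sets (9.84%) differed, of which 459 (5.25%) were higher in LowInj and 401 (4.59%) lower. When each array was centred on its own median these became 336 higher and 481 lower. Of all probe sets, 58.0% had a higher mean in LowInj and 42.0% a lower one. Differences were small. Only 56 probe sets differed by more than 0.5 on the log2 scale, none by more than 1, and the median standard error was 0.065. In 5 probe sets (0.0572%) the groups did not overlap in any animal, namely Camk2a, Il33, Dbp, Cbr1 and the unnamed J05132_s_at. When the spread was estimated from all 39 arrays in a fit of 4 groups, 10 probe sets (0.114%) passed an adjusted p of 0.05, 6 of them higher in LowInj (0.0686%) and 4 lower (0.0458%). Every difference between the pair given below is on the log2 scale, LowInj minus IntermediateCort, and did not pass in the fit of 19 arrays. An adjusted p is from limma, and is over all probe sets.

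**Figure D1:**
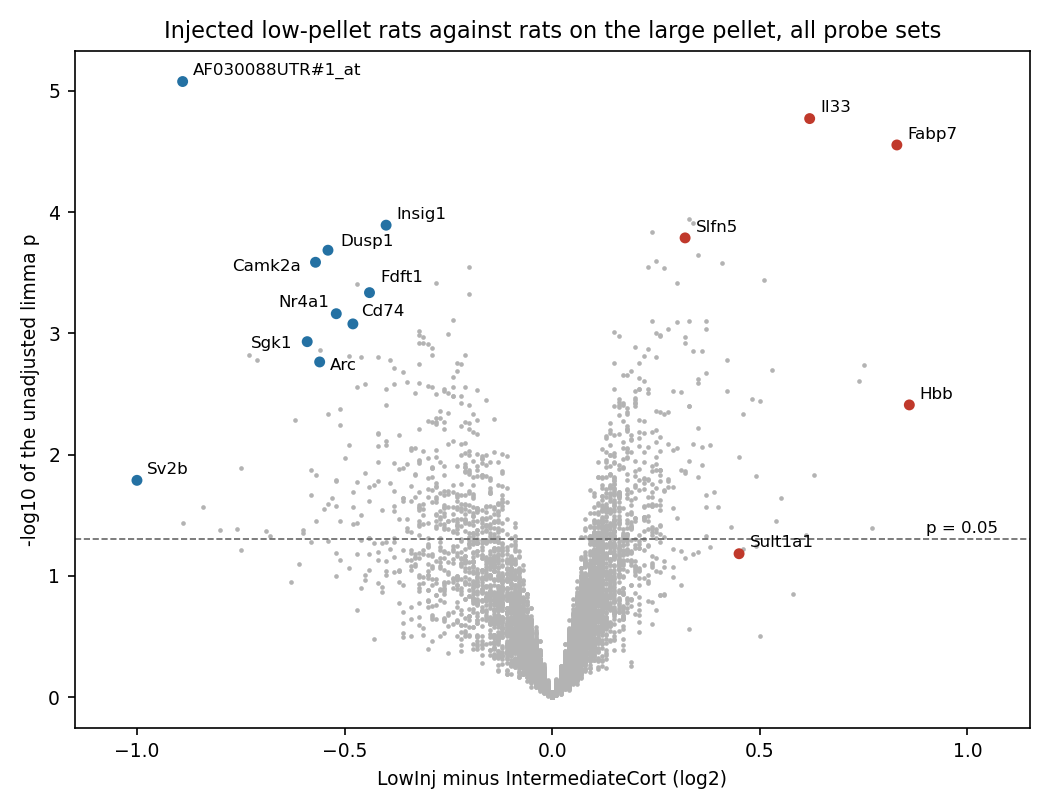
Each point is 1 of the 8740 probe sets. The horizontal axis is the log2 difference LowInj minus IntermediateCort, the vertical axis is −log10 of the unadjusted limma p, and the dashed line marks p = 0.05. Named points are genes of the text (red higher in LowInj, blue lower). AF030088UTR#1_at, Il33 and Fabp7 stand apart at the top, and Sv2b has the largest difference (-1.0) with a modest p.

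The named gene with the smallest p was Il33, the gene of an alarmin cytokine stored in the nuclei of glial cells. Its log2 level ran from 7.13 through a median of 7.45 to 8.08 in LowInj, and from 6.55 through 6.89 to 7.08 in IntermediateCort. The lowest injected rat thus stood above the highest rat on the large pellet. The difference was 0.62 ± 0.11 (SE), a 1.54-fold higher level, with an adjusted p of 0.0739. In the fit of all 39 arrays the adjusted p was 0.00667, so there Il33 was called higher. LowCort (7.08 ± 0.18, SD) and sham (6.98 ± 0.25) lay near IntermediateCort. LowInj also exceeded sham in that fit (0.51, adjusted p = 0.0143), while its excess over LowCort (0.40) had an adjusted p of 0.0863. Without the 5 arrays the difference was 0.75 (adjusted p = 0.0364).

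Fabp7, the brain lipid-binding protein of astrocytes and neural progenitors, showed the next difference. Levels were 8.26 at the lowest, 8.91 at the median and 9.56 at the highest in LowInj, against 7.73, 7.86 and 8.48 in IntermediateCort. All 10 injected rats were above the IntermediateCort mean, and 7 were above every IntermediateCort rat. The difference was 0.83 ± 0.15 (adjusted p = 0.0813), or 1.77-fold, and it was called in the fit of 39 arrays (adjusted p = 0.0162) and without the 5 arrays (0.98, adjusted p = 0.0364). LowCort stood between the groups at 8.50 ± 0.40.

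The smallest p of all belonged to AF030088UTR#1_at, which carries no gene symbol in the annotation used here. Its level was 7.29 to 8.57 (median 7.65) in LowInj and 8.24 to 9.14 (median 8.71) in IntermediateCort. All but 1 injected rat lay below every rat on the large pellet. The difference was -0.89 ± 0.15 (unadjusted p = 8.36e-06, adjusted p = 0.0731), and in the fit of 39 arrays the adjusted p was 0.015. Without the 5 arrays the difference was -0.74 (adjusted p = 0.101). Here sham stood with LowInj at 7.58 ± 0.23, LowCort was spread widely at 8.23 ± 0.50, and the excess of IntermediateCort over sham (1.10, adjusted p = 5.85e-04) was the 1 call between those groups (0.0114% of probe sets).

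Among the other probe sets called in the fit of 39 arrays, 4 named genes had smaller differences. Tnfrsf11b, the decoy receptor osteoprotegerin, was higher by 0.30 (adjusted p = 0.0252), with sham (7.04 ± 0.10) at the level of IntermediateCort (7.04 ± 0.10) and LowCort (7.43 ± 0.09) at that of LowInj (7.35 ± 0.20). Mmp14, a membrane-bound metalloproteinase that cleaves matrix proteins, was higher by 0.33 (adjusted p = 0.0498). Grifin, a protein related to galectins, was higher by 0.27 (adjusted p = 0.0468), and here LowInj also stood above both LowCort (0.34, adjusted p = 5.99e-04) and sham (0.27, adjusted p = 0.0187). Cdo1, the cysteine dioxygenase that starts cysteine breakdown, was lower by 0.47 (adjusted p = 0.0498). Its other probe set differed by -0.26 (unadjusted p = 0.0619). The remaining 3 calls were J05132_s_at, Insig1 and Camk2a, of which the last 2 are described with their groups.

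**Figure D2:**
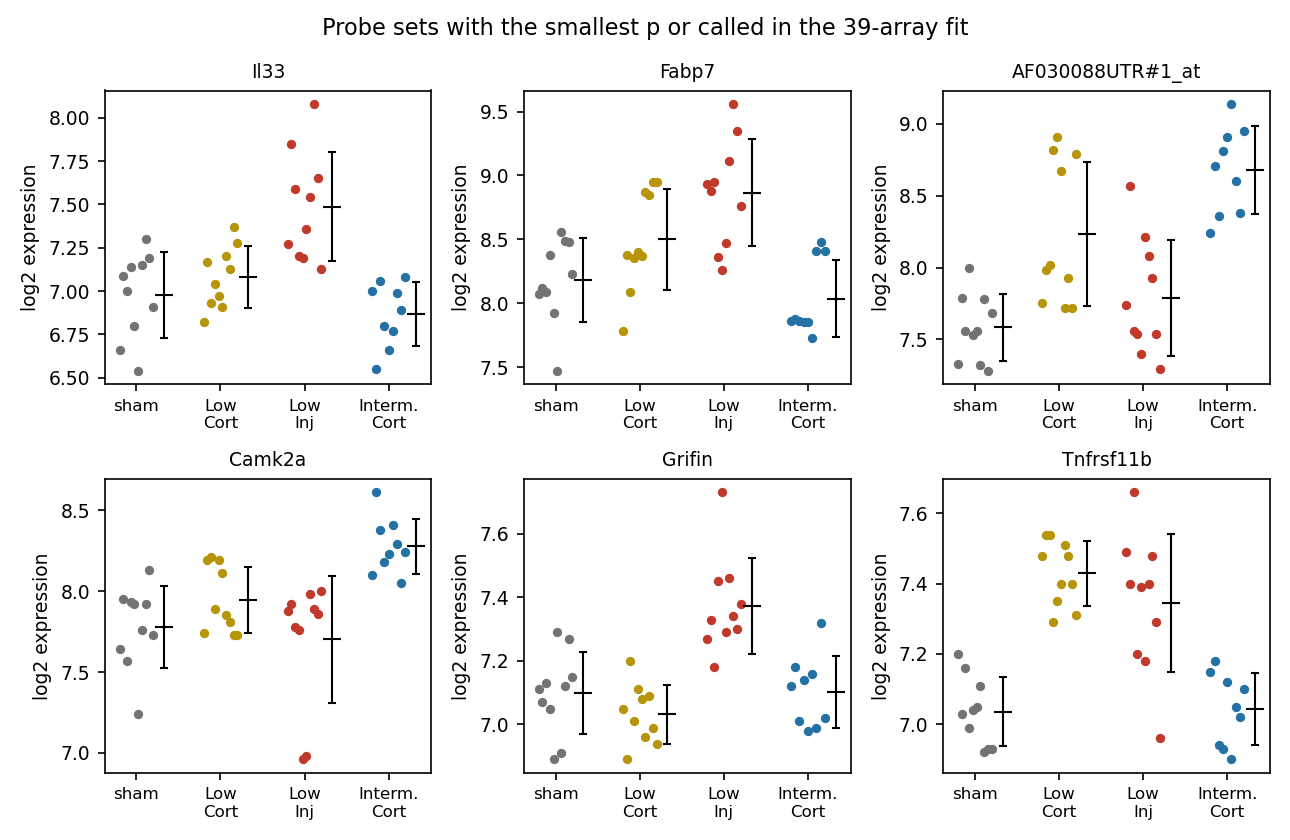
Log2 expression of 6 probe sets in each rat of the 4 groups (points), with the mean and SD beside them (bar). LowInj points lie above all IntermediateCort points for Il33 and below them for Camk2a, where 2 LowInj rats sit near 7. For Tnfrsf11b the sham and IntermediateCort points share 1 range and the LowCort and LowInj points another.

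Genes that glucocorticoids induce through their receptor included 5 with lower values in LowInj at an unadjusted p under 0.05. Of 49 listed genes 27 were measured. None was called. At an unadjusted p under 0.05, 0 were higher and 5 lower (18.5%), against 5.25% and 4.59% of all probe sets. In all 13 had a higher mean and 14 a lower one, and the median difference was 0.00 against 0.01 over all probe sets. The 5 were Sgk1, Il6r, Dusp1, Rhob and Nfkbia. The smallest p among them was that of Sgk1, the serum- and glucocorticoid-regulated kinase that raises sodium channel and transporter activity. Its level was 7.78 to 8.48 (median 7.96) in LowInj and 8.11 to 9.70 (median 8.54) in IntermediateCort, and all 10 injected rats lay below the IntermediateCort mean. The difference was -0.59 ± 0.16 (unadjusted p = 0.00117, adjusted p = 0.226). It was -0.46 without IntermediateCort subject 19, the highest rat of its group. Without the 5 arrays it was -0.63 (adjusted p = 0.0364). LowInj did not stand apart from LowCort for Sgk1 (8.05 ± 0.27 and 7.93 ± 0.17, difference 0.12, adjusted p = 0.909 in the fit of 39 arrays), whereas IntermediateCort was above LowCort (0.71, adjusted p = 0.0254). Sham had the highest level, 9.43 ± 0.59.

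Sult1a1, a sulfotransferase of phenols and catechols, had a higher mean in LowInj that did not pass. Its level was 6.39 to 7.59 (median 6.89) in LowInj and 5.16 to 7.81 (median 6.52) in IntermediateCort, so the groups overlapped fully. The difference was 0.45 ± 0.23 with a 95% interval of -0.03 to 0.94 and an unadjusted p of 0.0657. It was 0.29 without IntermediateCort subject 11, 0.31 with the 3′ to 5′ covariates (unadjusted p = 0.149) and 0.53 without the 5 arrays (unadjusted p = 0.0198). Both groups stood far above LowCort (5.05 ± 0.27): LowInj by 1.82 (adjusted p = 4.75e-08) and IntermediateCort by 1.37 (adjusted p = 3.17e-05) in the fit of 39 arrays. These comparisons share the LowCort arrays. Sham was at 6.75 ± 0.32. A second probe set of Sult1a1 differed by 0.17 (unadjusted p = 0.212). In injected rats the mean of Sult1a1 was thus near that of sham, and the mean of Sgk1 near that of LowCort.

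The promoters of Sgk1 and Sult1a1 are shown because these 2 induced genes are the ones described in most detail here. They are the 250 bases before the annotated start, from RefSeq on the rat assembly GRCr8, read 5′ to 3′ on the gene's strand, with any match to the glucocorticoid receptor half-site TGTTCT, or AGAACA on the other strand, in capitals. The Sult1a1 window lies at chr1:190706113-190706362 and the Sgk1 window at chr1:24807232-24807481, both on the minus strand.
Sult1a1: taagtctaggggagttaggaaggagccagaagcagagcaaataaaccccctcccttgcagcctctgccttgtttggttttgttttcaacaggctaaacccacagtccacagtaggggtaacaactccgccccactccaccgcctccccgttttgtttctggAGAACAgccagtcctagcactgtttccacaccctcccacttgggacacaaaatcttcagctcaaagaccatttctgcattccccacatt
Sgk1: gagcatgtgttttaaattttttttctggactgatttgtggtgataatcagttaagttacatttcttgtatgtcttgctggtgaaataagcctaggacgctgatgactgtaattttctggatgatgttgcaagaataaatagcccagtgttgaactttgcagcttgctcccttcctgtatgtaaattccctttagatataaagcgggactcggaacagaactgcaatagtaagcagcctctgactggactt
Sult1a1 held 1 match, on the reverse strand, whose first base is at -89 from the start, and Sgk1 held 0 in this window. Among measured members of the list with a window, 2 of 21 held a match (9.52%), Sult1a1 and Lyve1, against 17.1% of 27457 windows in the table and 11.3% of 3872 genes on the array. A match is a string of letters and not a known site.

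Lower values were also found for Dusp1, a phosphatase that switches off MAP kinases. It had 6.41 to 7.39 (median 6.80) in LowInj and 7.07 to 7.79 (median 7.29) in IntermediateCort, with 8 injected rats below every rat on the large pellet. The difference was -0.54 ± 0.12 (unadjusted p = 2.06e-04, adjusted p = 0.158). Its other 2 probe sets differed by -0.50 and -0.25. Klf9, a receptor-induced transcription factor, was lower by 0.31 in 1 probe set (unadjusted p = 0.00107) and differed by -0.06 in the brighter one (unadjusted p = 0.596). Errfi1, an inhibitor of the EGF receptor, was lower by 0.25 in 1 probe set (unadjusted p = 0.00102) and differed by -0.10 in the brightest one (unadjusted p = 0.146). In the first, LowInj was also below sham (-0.44, adjusted p = 0.00613). Il6r, the interleukin-6 receptor, was lower by 0.32 (unadjusted p = 0.00121). Nfkbia, the inhibitor of NF-kappa-B (-0.12), and Rhob, a small GTPase (-0.15), had smaller differences, and Rhob had an unadjusted p of 0.091 without the 5 arrays. These are the probe sets that stand in the list. With the 3′ to 5′ covariates, another Nfkbia probe set passed at -0.32 (adjusted p = 0.043), where the first differed by -0.17. Pdk4, which restrains glucose oxidation, differed by 0.01 with a 95% interval of -0.08 to 0.11. Fkbp5, Tsc22d3, Per1, Mt1, Mt2 and Gfap had 0 probe sets with that symbol alone.

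For the receptors and the enzyme that regenerates corticosterone, no difference passed an unadjusted p of 0.05 with all arrays. For Nr3c1 the levels in a dimmer probe set were 5.87 ± 0.20 and 5.76 ± 0.12, a difference of 0.11 with a 95% interval of -0.04 to 0.27. Its brightest probe set, which stands for the gene in the list, differed by 0.02 ± 0.04 (unadjusted p = 0.634). For Nr3c2 they were 8.42 ± 0.30 and 8.34 ± 0.16, with an interval of -0.14 to 0.29. Hsd11b1, which makes active corticosterone from its inert form, stood at 10.39 ± 0.17 and 10.33 ± 0.15, with an interval of -0.10 to 0.20 around 0.05. Without the 5 arrays it differed by 0.16 (unadjusted p = 0.0442). Crh, which encodes corticotropin-releasing hormone itself, stood at 4.40 ± 0.17 and 4.42 ± 0.13, with an interval of -0.16 to 0.13. Crhbp, the protein that binds corticotropin-releasing hormone, was the list's lowest member at -0.29 ± 0.08 (unadjusted p = 0.00131). Of the 12 measured genes in this list 1 was higher and 1 lower at an unadjusted p under 0.05 (8.33% each, against 5.25% and 4.59% of all probe sets).

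Immediate early genes, which neurons switch on within minutes of activity, included 8 with lower values in injected rats at an unadjusted p under 0.05. Of 33 listed genes 25 were measured, 8 were lower and 1 higher at an unadjusted p under 0.05 (32.0% against 4.59% of all probe sets lower), and 0 were called. In all 16 of 25 had a lower mean (64.0%, against 42.0% of all probe sets). The median over the 25 was only -0.02, near that of all probe sets (0.01). Arc, which regulates receptor trafficking at active synapses, had 9.52 to 10.46 (median 10.05) in LowInj and 10.00 to 11.19 (median 10.48) in IntermediateCort. All 10 injected rats lay below the IntermediateCort mean, and the difference was -0.56 ± 0.16 (unadjusted p = 0.00172, adjusted p = 0.226). Nr4a1, an orphan nuclear receptor, had 9.14 to 10.12 (median 9.62) against 9.73 to 10.50 (median 10.14), a difference of -0.52 ± 0.13 (unadjusted p = 6.88e-04). Egr2 (-0.51), Junb (-0.36) and Fos (-0.24), all transcription factors, and Dusp6 (-0.36), a phosphatase of ERK, followed. The brightest Fos probe set, which stands for the gene in the list, differed by -0.17 (unadjusted p = 0.0147). Dusp1 and Egr1 were the other 2 of the 8. The exception was Jun, higher by 0.24 (unadjusted p = 0.0396), and by 0.17 without the 5 arrays (unadjusted p = 0.0625).

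For most of these genes LowCort and sham lay nearer to LowInj. Arc was 9.91 ± 0.37 in LowCort and 10.09 ± 0.39 in sham, both close to LowInj (10.00 ± 0.32) and below IntermediateCort (10.56 ± 0.42). In the fit of 39 arrays IntermediateCort exceeded LowCort for Arc (0.66, adjusted p = 0.0241), Nr4a1 (0.60, adjusted p = 0.0136) and Fos (0.30, adjusted p = 0.00907), while its excess over sham did not pass for Arc (0.47, adjusted p = 0.966). LowCort was nearer to LowInj than to IntermediateCort in 8 of the 9 immediate early genes at an unadjusted p under 0.05, and sham in 7 of 9. Among all 860 probe sets at that p, LowCort was nearer to LowInj in 66.7% and sham in 42.1%. Egr1, measured by M18416_at, differed by -0.42 (unadjusted p = 0.0165) and by -0.24 without the 5 arrays (unadjusted p = 0.0984). The brightest Egr1 probe set, which stands for the gene in the list, differed by -0.27 (unadjusted p = 0.0373). Bdnf, a growth factor induced by activity, differed by 0.10 with an interval of -0.04 to 0.24, and by 0.00 without the 5 arrays. Its brightest probe set differed by -0.01 (unadjusted p = 0.811).

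Cholesterol synthesis genes mostly had lower means in LowInj, and 0 were called. Of 18 measured members 16 had a lower mean (88.9%, against 42.0% of all probe sets). At an unadjusted p under 0.05, 7 were lower (38.9% against 4.59%) and 0 higher. The median was -0.11, and it lay between -0.13 and -0.10 under the other scalings, with the 3′ to 5′ covariates and without the 5 arrays. Insig1, which holds the sterol-sensing complex in the endoplasmic reticulum and is itself induced when sterol synthesis is switched on, had 8.25 to 8.97 (median 8.68) in LowInj and 8.74 to 9.31 (median 9.09) in IntermediateCort. All 10 injected rats lay below the IntermediateCort mean. The difference was -0.40 ± 0.08 (unadjusted p = 1.28e-04, adjusted p = 0.158), its second probe set gave -0.32, and the fit of 39 arrays called it lower (adjusted p = 0.0162). Without the 5 arrays the difference of -0.40 became -0.29 (unadjusted p = 0.00307).

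Fdft1, the squalene synthase that commits the pathway to sterols, had 8.22 to 9.39 (median 8.74) against 9.07 to 9.38 (median 9.20). In 9 of 10 injected rats it was below every rat on the large pellet, and in the other it was above all of them. The difference was -0.44 ± 0.11, and its 3 other probe sets differed by -0.20 to -0.24. It was -0.31 without the 5 arrays. Acat2, which makes acetoacetyl-CoA (-0.30), Idi1 (-0.27) and Sqle (-0.22), both enzymes on the way to lanosterol, were lower too. Scd, the stearoyl-CoA desaturase, is a fatty acid enzyme that the list includes, and was also lower (-0.35). The 2 members with a higher mean were Srebf1 (0.17, unadjusted p = 0.187) and Scd2 (0.04, unadjusted p = 0.726). Sqle differed by -0.13 without the 5 arrays (unadjusted p = 0.103). Fdps, which makes farnesyl diphosphate, differed by -0.40 with all arrays and by -0.14 without the 5. Lss, the lanosterol synthase, was lower by 0.20 in 1 probe set (unadjusted p = 2.81e-04), and its other 2 differed by -0.04 and -0.06. Sham was nearer to IntermediateCort in all 7 members at an unadjusted p under 0.05, and LowCort nearer to LowInj in 6. Among all 860 probe sets at that p, sham was nearer to IntermediateCort in 498 and LowCort nearer to LowInj in 574. For Insig1 sham stood at 9.04 ± 0.15 and LowCort at 8.76 ± 0.13, and LowInj was below sham by 0.37 (adjusted p = 0.0143 in the fit of 39 arrays).

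**Figure D3:**
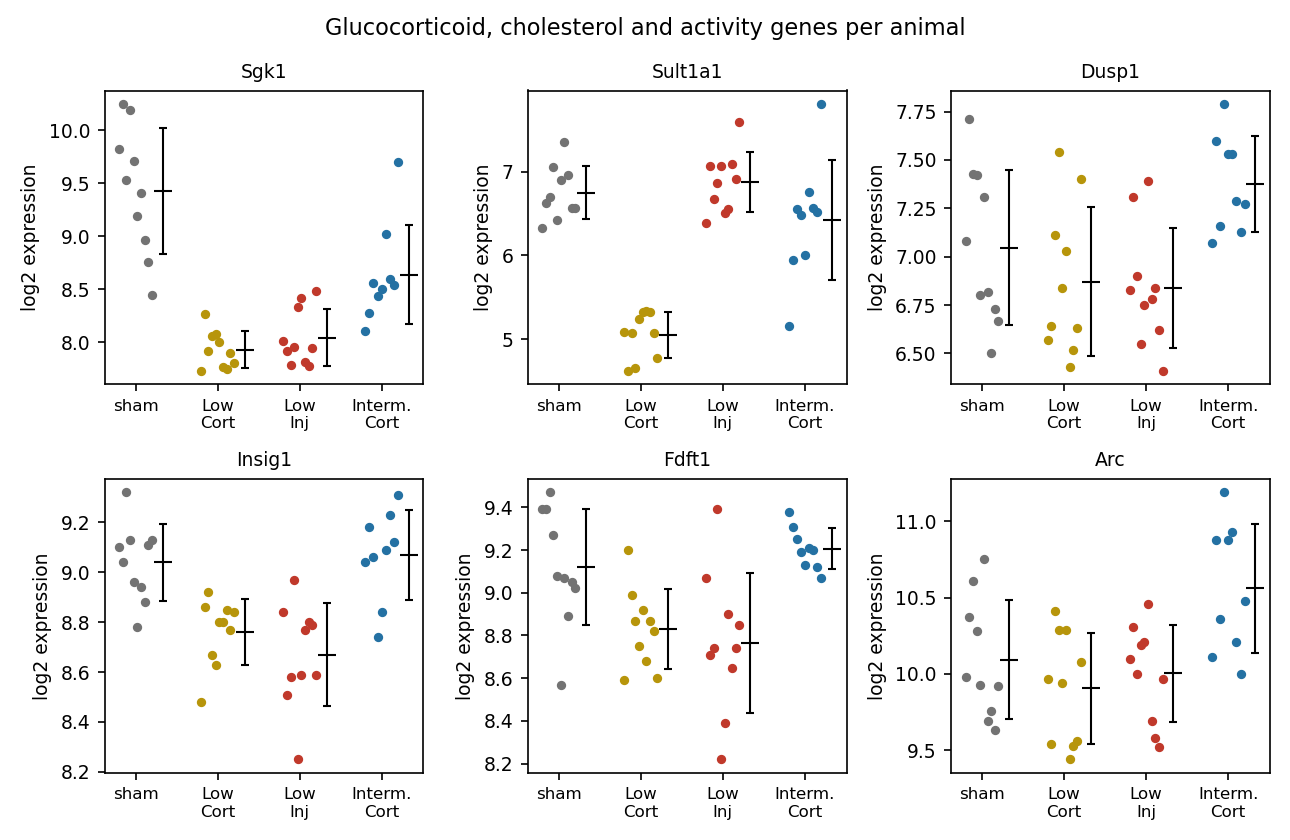
Log2 expression in each rat of the 4 groups (points) with mean and SD (bar) for 6 genes. Sgk1 and Insig1 show LowInj at the LowCort level, Sult1a1 shows LowInj far above LowCort and at the sham level, and Dusp1 and Arc are highest in IntermediateCort.

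Among synaptic genes, Camk2a was the one whose groups did not overlap. Camk2a, the alpha subunit of the calcium/calmodulin kinase of the postsynaptic density, had 6.96 to 8.00 (median 7.87) in LowInj and 8.05 to 8.61 (median 8.24) in IntermediateCort, so that no animal overlapped. The difference was -0.57 ± 0.13 (unadjusted p = 2.59e-04, adjusted p = 0.158), and the fit of 39 arrays called it (adjusted p = 0.0345). The means of LowCort (7.94) and sham (7.78) lay nearer to LowInj (7.70) than to IntermediateCort (8.28). Subjects 34 and 35, at 6.96 and 6.98, were far below the other injected rats, and without the 5 arrays the difference was -0.41 (adjusted p = 0.0635). A second Camk2a probe set, J02942_at, differed by only -0.10 (unadjusted p = 0.241), so the probe sets disagree in size. Of 35 measured glutamate receptor and scaffold genes 3 were higher (8.57%) and 1 lower (2.86%) at an unadjusted p under 0.05, with a median of -0.02. Over all probe sets these shares were 5.25% and 4.59%. Grm2, a presynaptic metabotropic receptor, was higher by 0.32 (unadjusted p = 0.00121).

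Genes of the presynaptic vesicle machinery had a lower median (-0.09, 30 measured), with 1 higher and 3 lower at an unadjusted p under 0.05 (background 5.25% and 4.59%). Without the 5 arrays this median was -0.02. Sv2b, a synaptic vesicle protein, had the largest difference of any probe set, -1.0 ± 0.38 (unadjusted p = 0.0163), in L10362_at. Subjects 34 and 35 stood at 6.54 and 6.62 there and all others at 8.05 or above. The difference was -0.29 without the 5 arrays, and a second Sv2b probe set differed by -0.20. The part of RNA quality in these values was not tested. Syt4, a vesicle calcium sensor relative, differed by -0.34, and Napa, an adaptor of membrane fusion, by -0.38 in 1 probe set and -0.17 in the brighter one. Syt4 and the first Napa probe set both differed by -0.23 without the 5 arrays. Rab3b, a vesicle GTPase, was higher by 0.25. Of 13 GABA receptor genes 0 were higher or lower at an unadjusted p under 0.05. A dimmer probe set of the subunit gene Gabra5 differed by -0.28, and by -0.16 without the 5 arrays (unadjusted p = 0.0637). The brightest, which stands for that gene in the list, differed by -0.07. Sstr2, a somatostatin receptor, was higher by 0.41 ± 0.09 (unadjusted p = 2.62e-04), with 9 of 10 injected rats above every IntermediateCort rat. Without the 5 arrays Sstr2 was higher by 0.31.

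Of 14 measured interferon response genes 13 had a higher mean in LowInj (92.9%, against 58.0% of all probe sets), and 0 were called. At an unadjusted p under 0.05, 3 were higher (21.4% against 5.25%), and the median was 0.07. Slfn5, an interferon-induced protein, had 7.90 to 8.51 (median 8.12) in LowInj and 7.60 to 7.95 (median 7.84) in IntermediateCort, and 8 injected rats were above every rat on the large pellet. The difference was 0.32 ± 0.07 (unadjusted p = 1.63e-04, adjusted p = 0.158). LowCort was higher still at 8.49 ± 0.21, above both IntermediateCort (0.67, adjusted p = 3.47e-06) and LowInj (0.35, adjusted p = 0.0376). Irf7 (0.16) and Mx2 (0.13), both induced by interferon, were the other 2. Without the 5 arrays Irf7 had an unadjusted p of 0.0605.

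In the MHC list, 14 genes were measured, 7 with a higher and 7 with a lower mean, and the median was 0.00. At an unadjusted p under 0.05, 1 was higher (RT1-S3, 0.12) and 2 were lower (RT1-Da, -0.42, and RT1-M3-1, -0.15). These are 7.14% and 14.3% of the list, against 5.25% and 4.59% of all probe sets. Cd74, the invariant chain of class II, had 6.48 to 7.66 (median 6.78) in LowInj and 7.00 to 7.66 (median 7.39) in IntermediateCort. With 8 injected rats below every rat on the large pellet, the difference was -0.48 ± 0.12 (unadjusted p = 8.35e-04, adjusted p = 0.226). Mean Cd74 was 7.07 in LowCort and 6.89 in sham, beside 6.90 in LowInj and 7.39 in IntermediateCort. Its other 3 probe sets differed by -0.14 to -0.56, and the brightest, which stands for the gene in the list, by -0.14 (unadjusted p = 0.139). RT1-Da, a class II chain, had an unadjusted p of 0.00665, while another class II gene, RT1-DMb, differed by 0.11 (unadjusted p = 0.158). Psmb9, an interferon-inducible proteasome subunit for class I peptides, was higher by 0.15 in 1 probe set (unadjusted p = 9.75e-04) and differed by 0.01 in the brighter one (unadjusted p = 0.851).

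Of 16 measured microglial and macrophage markers 4 were higher at an unadjusted p under 0.05 (25.0% against 5.25% of all probe sets) and 0 lower. The count was 2 with array medians centred. It was also 2 without IntermediateCort subject 12, 14 or 16 or LowInj subject 31, 36, 37 or 38, and 7 without IntermediateCort subject 11. C1qb, a complement subunit made by microglia, led with 0.34 ± 0.09 (unadjusted p = 0.00139), though its second probe set differed by 0.17 (unadjusted p = 0.272). Cd53 (0.15) and P2ry12 (0.23), a homeostatic microglial receptor, followed, and P2ry12 had an unadjusted p of 0.0699 without the 5 arrays. Of the 16 markers 12 had a higher mean in LowInj and 4 a lower one, with a median of 0.07. The lower ones were C3 (-0.17), Coro1a (-0.05), Itgam (-0.03) and C1qc (-0.01). None of these passed, the smallest unadjusted p being 0.195 for C3. The mean level of the list ran from 7.74 to 7.96 in LowInj and from 7.73 to 7.90 in IntermediateCort.

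Markers of vessels, blood, matrix and myelin were higher in LowInj in several members. Among 24 endothelial and pericyte markers 3 were higher at an unadjusted p under 0.05 (12.5% against 5.25% of all probe sets) and 0 lower. Slco1a4, an organic anion transporter of the blood-brain barrier, was higher by 0.35 ± 0.10, and LowCort stood highest at 10.13 ± 0.19. Kdr, the main VEGF receptor, was higher by 0.50 ± 0.15, and Kcnj8, a potassium channel of pericytes, by 0.46 ± 0.15. Blood markers were higher beside them. In this list 12 of 13 had a higher mean in LowInj (92.3%, against 58.0% of all probe sets), with 3 at an unadjusted p under 0.05 (23.1% against 5.25%). Their mean level was 7.16 to 7.55 in LowInj and 6.98 to 7.23 in IntermediateCort. The haemoglobin genes Hbb (0.86 ± 0.27) and Hbb-b1 (0.74 ± 0.21) are near-identical copies whose probes may share transcripts. Hba-a3, another haemoglobin gene of the list, differed by 0.01 (unadjusted p = 0.849). Slc4a1, a red cell gene, differed by 0.04 (unadjusted p = 0.454). Alas2, the haem synthesis enzyme of red cells, was higher by 0.30 ± 0.08 (unadjusted p = 7.98e-04). The part of blood left in the tissue in the vessel and immune values was not tested.

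Of 31 measured extracellular matrix genes 7 were higher (22.6%) and 2 lower (6.45%) at an unadjusted p under 0.05, against 5.25% and 4.59% of all probe sets. With the 3′ to 5′ covariates 2 were higher, without the 5 arrays 3, and without IntermediateCort subject 17 alone 4. Of 16 fibroblast and meninges markers 4 were higher (25.0%) and 0 lower at an unadjusted p under 0.05, and 3 were higher without the 5 arrays. Members such as Col1a1 and Dcn were higher in both lists. Of 11 choroid plexus and ependyma markers 10 had a higher mean (90.9%, against 58.0% of all probe sets), and 8 without the 5 arrays. The part of meningeal or choroid plexus tissue in the matrix values was not tested. Mmp14 had 7.12 to 7.72 (median 7.43) in LowInj and 6.93 to 7.18 (median 7.08) in IntermediateCort, with 8 injected rats above every rat on the large pellet. Efemp1, the matrix protein fibulin-3, was higher by 0.35 ± 0.08 (unadjusted p = 2.25e-04) and by 0.27 in a brighter probe set, and was highest in LowCort. The 0.35 became 0.26 without the 5 arrays. Col1a1, a chain of type I collagen, differed by 0.42 in 1 probe set and by 0.01 to 0.16 in its other 3. The 0.42 became 0.29 without the 5 arrays. Among 12 myelin and oligodendrocyte markers 4 were higher (33.3% against 5.25% of all probe sets) and 0 lower at an unadjusted p under 0.05. In all 7 of 12 had a higher mean and 5 a lower one. The lower ones were the myelin genes Mal (-0.28), Mobp (-0.18), Mog (-0.07) and Mbp (-0.04) and the chaperone Cryab (-0.13), of which none passed, the smallest unadjusted p being 0.076 for Mal. Sox10, the lineage's transcription factor, was higher by 0.28 ± 0.07 (unadjusted p = 9.28e-04), and Cnp, an enzyme of myelin, by 0.20 ± 0.06 (unadjusted p = 0.00339). Pllp, the myelin protein plasmolipin, which was in no list, was higher by 0.34 ± 0.07 (unadjusted p = 1.23e-04) with all 10 injected rats above the IntermediateCort mean. Id3, a helix-loop-helix inhibitor found in astrocytes and vessels, was higher by 0.53 ± 0.15, while the 16 measured astrocyte markers had a median of -0.03 with all arrays and 0.05 without the 5.

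Of 9 measured clock genes 0 were called, and the median was 0.02. At an unadjusted p under 0.05, 2 were higher (22.2%) and 1 lower (11.1%), against 5.25% and 4.59% of all probe sets. Dbp, an output transcription factor of the clock, had 9.90 to 10.64 (median 9.98) in LowInj and 9.56 to 9.86 (median 9.78) in IntermediateCort, with no overlap. The difference was 0.33 ± 0.09 (unadjusted p = 7.88e-04, adjusted p = 0.226), and LowInj exceeded sham by 0.48 (adjusted p = 0.00613 in the fit of 39 arrays). Without the 5 arrays Dbp differed between the pair by 0.22. Nr1d1, the repressor Rev-erb alpha, was higher by 0.37 ± 0.11 (unadjusted p = 0.00214), with LowCort (8.55 ± 0.16) and sham (8.62 ± 0.26) at the IntermediateCort level (8.59 ± 0.09). Bhlhe40, a repressor of the clock, was lower by 0.32 (unadjusted p = 0.011), and differed by -0.14 without the 5 arrays (unadjusted p = 0.0869).

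**Figure D4:**
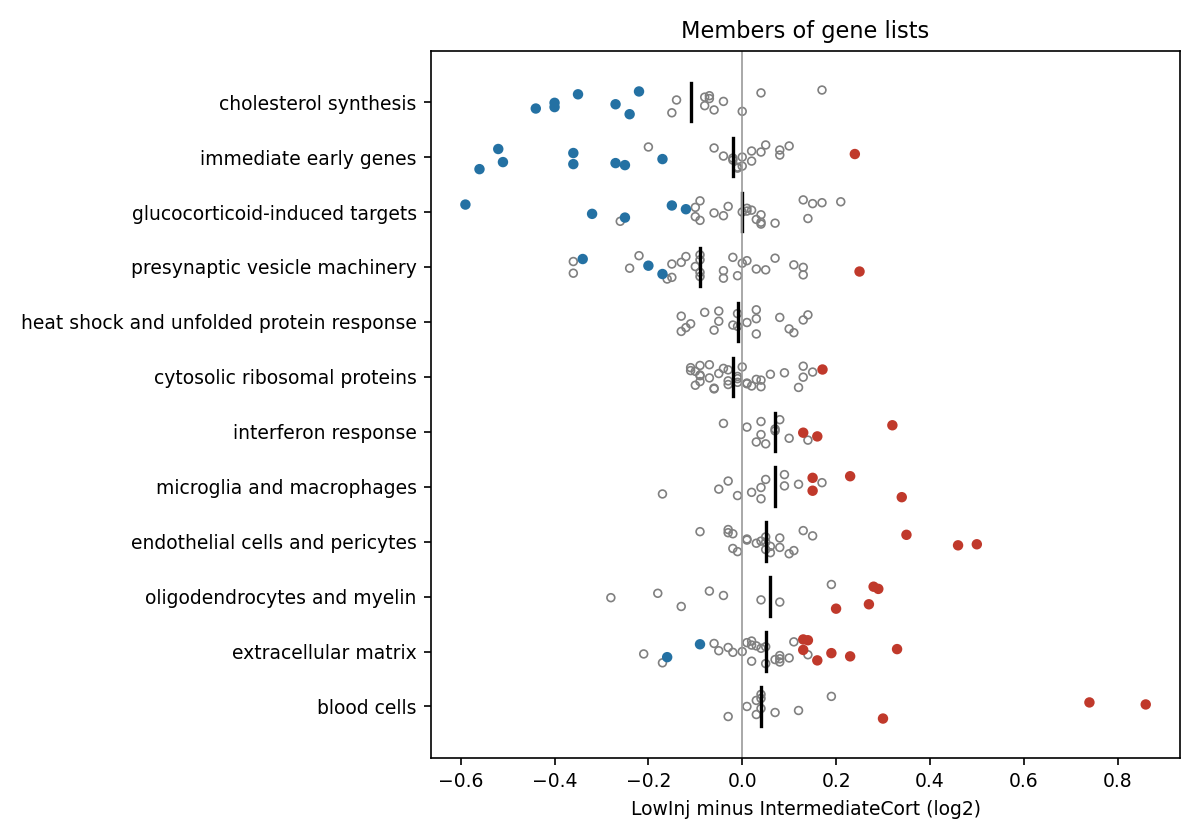
Log2 difference LowInj minus IntermediateCort for the measured members of 12 gene lists, 1 point per gene, with the list median as a black bar. Filled points have an unadjusted p under 0.05 (red higher, blue lower). Cholesterol synthesis has the lowest median (-0.11), with 16 of 18 members below 0, and the highest single points are Hbb and Hbb-b1 among blood cells.

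The lists of heat shock, ribosomal, oxidative phosphorylation and glucose genes showed little. Of 20 heat shock and unfolded protein genes 0 were higher or lower at an unadjusted p under 0.05. A dimmer probe set of the chaperone Hsp90ab1 differed by -0.42, and by -0.18 without the 5 arrays (unadjusted p = 0.049). The brightest, which stands for that gene in the list, differed by -0.02. Of 34 ribosomal protein genes 1 was higher (2.94%, against 5.25% of all probe sets). Oxidative phosphorylation (28 measured) had 1 lower (3.57%, against 4.59% of all probe sets). Glycolysis and glucose use (25 measured) had 1 higher (4.0%, against 5.25%), the glucose transporter Slc2a4 (0.13). A dimmer probe set of Hk2, a hexokinase, was higher by 0.19 (unadjusted p = 0.00764) and by 0.11 without the 5 arrays (unadjusted p = 0.0616). The brighter one differed by 0.01. Markers of neighbouring forebrain regions, which can enter a dissection, had a higher mean in 18 of 19 members (94.7%, against 58.0% of all probe sets), with a median of 0.07. At an unadjusted p under 0.05, 4 were higher (21.1% against 5.25%). Without the 5 arrays 14 of 19 had a higher mean, and with the 3′ to 5′ covariates 15. Prkcd (0.16), Ddc (0.16) and Drd1 (0.18) were among the 4, and the other Drd1 probe sets differed by 0.02 and 0.05. The mean level of that list was 7.66 to 7.91 in LowInj and 7.65 to 7.74 in IntermediateCort, and its part in the other differences was not tested.

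Set beside the remaining groups, the genes that separated the pair mostly had LowCort on the side of LowInj. Over the 20 genes named by p, 10 in each direction, the LowCort mean was nearer to LowInj in 17 and nearer to IntermediateCort in 3, which were Il33, Mmp14 and Grifin. Over the 860 probe sets at an unadjusted p under 0.05 it was nearer to LowInj in 66.7%, against 52.7% of all probe sets. Sham was nearer to LowInj in 42.1% of the 860 and in 48.8% of all. In the fit of 39 arrays LowInj differed from LowCort in 22 probe sets (0.252%) and IntermediateCort from LowCort in 141 (1.61%). LowInj differed from sham in 11 (0.126%) and IntermediateCort from sham in 1 (0.0114%). These comparisons share arrays, so their counts are set side by side and were not tested against each other.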

How the data were processed

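RNA from CA1 tissue of single rats was hybridised to Affymetrix arrays, 1 array per animal. The authors deposited 1 table of log2 expression values. Per the submitters' processing notes, the tools include MAS5, RMA and R 2.7.1, and the labels do not say which produced the table. The log2 base was read from the values, which run from 2.82 to 14.37. No normalization was added.

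Groups came from the labels. Of 8740 probe sets tested after 59 controls were left out, 7006 had 1 gene symbol (4736 genes), 308 several and 1426 none, and none was named from the latter 2 kinds. Entrez identifiers of 6985 matched the RefSeq table of GRCr8, which changed 0 symbols. limma 3.58.1 (R 4.3.3) was fitted to the 19 arrays with moderated variances, 17 residual degrees of freedom and two-sided Benjamini-Hochberg adjustment, and was tested on simulated data. A probe set was called at an adjusted p under 0.05. A second fit used all 39 arrays. Arrays have no read depth, and their number limits the precision. Errors are SD for levels and SE for differences, and intervals are at 95%.

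In lists, the probe set with the highest mean stood for a gene, whereas named genes are given by the probe set with the lowest p. The rule named the 10 genes with the smallest p in each direction, up to 4 members of each list, and fixed glucocorticoid and activity genes. Il6r, Nfkbia, Rhob, Scd, Fdps, Sqle, Idi1, Egr2, Junb, Jun, Tnfrsf11b, RT1-DMb, Mal, Mobp, Mog, Mbp and Cryab were named after their values were seen. So were Pecam1, Vwf, Pdgfrb, Srebf1, Scd2, Hba-a3, Slc4a1, C3, Coro1a, Itgam and C1qc. The comparison, lists and members were chosen with earlier results of these data known. Alternatives were a filter at the 30th percentile of mean, array quality weights, quantile normalization, array medians centred, the 3′ to 5′ differences or subject order as covariates, a trended and robust prior, all 39 arrays, the lowest-p probe set for lists, and each array left out in turn. Leaving out the 5 arrays with a high Gapdh difference was added after seeing the data.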

Additional observations from a re-analysis of the deposited data

Results flagged for a closer look

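Within groups, 8 values stood apart from the rest of their group by Dixon's criterion, out of 180 groups examined. Chance alone gives about 1 in 20 groups such a value.

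Among injected rats, subject 34 had the highest value for Grifin (7.73, the others 7.18 to 7.46), for Itpka, a kinase of inositol trisphosphate (11.63, the others 10.53 to 11.10), and for Rab3b (10.21, the others 9.37 to 9.76). Subject 35 was highest for Jun (9.92, the others 8.88 to 9.43), and subject 38 for Kcnj8 (7.63, the others 6.37 to 6.92). All 3 of these arrays have a Gapdh 3′ to 5′ difference of 1 or more.

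Among rats on the large pellet, subject 11 was lowest for Egr1 in M18416_at (8.84, the others 9.46 to 9.85) and for Calb1, the calcium buffer calbindin (9.26, the others 9.85 to 10.36). Subject 14 was lowest for Cbr1, a carbonyl reductase (8.09, the others 8.21 to 8.32).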

How the results depend on the processing

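The count of 0 called probe sets became 37 with array quality weights (24 higher and 13 lower), 10 with the 3′ to 5′ covariates (4 and 6), 10 with all 39 arrays (6 and 4) and 7 without the 5 arrays of high Gapdh difference (6 and 1). It was 0 with the filter, quantile normalization, centring, subject order and the trended prior. Leaving out 1 array gave 0 to 4 calls, with calls without IntermediateCort subject 11 (2) and LowInj subjects 30 (4), 31 (1), 33 (3), 34 (2) or 35 (4). Probe sets at an unadjusted p under 0.05 ranged from 349 to 579 higher and from 287 to 587 lower, and without the 5 arrays 304 were higher. The Gapdh difference ranged from 0.24 to 0.46, passing an exact permutation p of 0.05 without LowInj subject 30, 32, 36 or 37 or IntermediateCort subject 19. The beta-actin difference, 0.14, ranged from -0.01 (without LowInj subject 39) to 0.24. Nr3c2 was -0.005 without the 5 arrays, and Crh, -0.02 with all arrays, ranged from -0.06 (without LowInj subject 35) to 0.01, being above 0 at 0.0029 without IntermediateCort subject 14, at 0.01 without subject 16 and at 0.0048 without LowInj subject 30. Il33, Fabp7 and Tnfrsf11b passed under the weights, the covariates, all 39 arrays and without the 5 arrays, and Sgk1 under these except all 39 arrays. The causes of these shifts were not tested. No paired analysis was possible because each subject number belongs to 1 rat and the groups share none.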
